A study of Mus musculus with 24 samples.

Results

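The mitochondrial respiratory chain and ATP synthase are built mostly from subunits that the nucleus encodes, and the mRNAs of these subunits were followed here in T cells from the bone marrow of mice with bone marrow failure (BMF). The rule for members reads the gene symbol and no measured value: symbols that start with Nduf and a letter a, b, c, s or v before a number, with Uqcr, with Cox4 to Cox8 or with Atp5, together with Sdha, Sdhb, Sdhc and Sdhd, and without pseudogenes named as such. Of the 24421 genes counted, 84 met this rule. Complex I has 37 of them, complex II 4, complex III 8, complex IV 18 and complex V, the ATP synthase, 17. By textbook role 24 are core subunits that carry electrons or form the rotor, head and stalks of the ATP synthase, 57 are accessory subunits, and Atp5s, Atp5sl and Cox7a2l share the names but are assembly or coupling factors rather than subunits.

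Complex I takes electrons from NADH and complex II from succinate, and both pass them through ubiquinone to complex III, which passes them on by cytochrome c to complex IV and oxygen. Complexes I, III and IV pump protons out of the matrix, and the ATP synthase lets them flow back while it makes ATP. In T cells this machinery is known to serve resting and memory cells, and to be enlarged when cells are activated and start to divide. Several subunits of complexes I, III, IV and V are encoded in mitochondrial DNA; these were not analysed here.

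The study measured RNA in 24 libraries, 3 for each of 8 groups. All animals were female CByB6F1 mice with BMF, aged 2 to 5 months, and no allele or transgene is named in the labels. CD8 and CD4 T cells were sorted from marrow after no drug (untreated), cyclosporine (CSA, a calcineurin inhibitor), ruxolitinib (RUX, an inhibitor of the kinases JAK1 and JAK2) or both (RUX+CSA, with a low dose of ruxolitinib per the design text). The untreated mice carried the marrow failure too, so each drug effect is measured against diseased animals, and healthy marrow was not analysed here. Each library holds cells pooled from 2 to 3 mice of a group, so 3 pools stand behind every mean, and nothing in the labels says that the CD8 and CD4 pools came from the same animals. Libraries are named by group and pool number.

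Library totals ran from 16912085 to 34550183 read pairs, and levels are given as CPM, the share of a library's counts on a common scale, with trimmed mean of M values (TMM) factors. The members took 0.8815% to 1.137% of the counts of a library. The summed CPM of Cd8a and Cd8b1 was 2071 to 2841 in CD8 libraries and 9.87 to 27.7 in CD4 libraries, and all 10 genes of the T cell identity list were found in every group. Markers of other marrow cells were present as well: the summed level of 10 neutrophil genes ran from 10.9 CPM in CD8 untreated 2 to 5545 CPM in CD8 RUX+CSA 10, and from 4.198 to 15950 CPM over the CD4 libraries. In bulk RNA, fewer cells of a type and less RNA per cell cannot be told apart. The CD8 libraries CSA 6 and RUX 7 stood apart from their groups in 1 gene outside the chain, Klrc1, an inhibitory lectin receptor. It reached 1123 CPM in pool CSA 4, 1339 CPM in pool CSA 5 and 1228 CPM in pool RUX 7. CSA 6 had 353.5 CPM, and RUX 8 and RUX 9 had 368 and 371 CPM. The untreated CD8 pools had 382, 505.3 and 380.3 CPM and the RUX+CSA pools 1137, 1056 and 889.1 CPM. Whether labels or variation between pools lie behind this was not tested. The counts and medians of comparisons that use CSA 6 or RUX 7 are given with and without both.

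The members are short genes. Their median exon length was 686.5 bases against 2812 bases for all 13476 genes tested across the 24 libraries, and 57 of 84 were under 1000 bases. No member was over 4000 bases. Filtering for low counts left 78 members in the CD8 fit of 12684 genes, 78 in the CD4 fit of 13175 genes and 79 in the fit of all libraries. Cox8b, Cox8c, Cox7b2 and Ndufs5 never passed 3 counts in a library. Ndufs5, an accessory subunit of complex I (mm10 chr4:123712710-123718186, minus strand), was at 0 in 23 of 24 libraries, and 95.1% of its exon bases lie within exons of BC002163, which had 42 to 177 counts. The recorded counting command does not assign read pairs that fall on 2 genes, so this value is no measure of Ndufs5 mRNA. Smaller overlaps touched Ndufa13 (27.5% of its exon bases, with Tssk6), Atp5j (13.6%, with Gabpa), Uqcrc2 (12.1%, with Pdzd9), Atp5f1 (11.3%, with Wdr77) and Cox6a2 (10.5%, with Itgad). Still smaller ones touched Ndufa2 (9.97%, with Tmco6), Ndufs1 (8.47%, with Ino80dos), Ndufb11 (7.27%, with Rbm10) and Ndufa4l2 (3.53%, with Shmt2).

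Per kilobase of exon the ATP synthase led the chain. Atp5b, the catalytic beta subunit of its head, had the highest mean level over the 24 libraries, 560 CPM per kb. The c ring gene Atp5g3 followed at 343 CPM per kb, the stalk subunit Atp5h at 342 CPM per kb and the alpha subunit Atp5a1 at 335 CPM per kb. Cox6b1, at 327 CPM per kb, and Cox4i1, at 316 CPM per kb, led complex IV, and Cox5a had 271 CPM per kb. Ndufa4, which is named for complex I but is now counted with complex IV, had 257 CPM per kb and stood above all other Nduf genes. The catalytic pair of complex II had 138 CPM per kb (Sdha) and 193 CPM per kb (Sdhb), and in complex III Uqcrc1 had 205 CPM per kb and the Rieske iron-sulfur protein Uqcrfs1 82.0 CPM per kb. Among complex I core subunits Ndufv1, which takes electrons from NADH, had 64.8 CPM per kb and Ndufs1, the largest iron-sulfur subunit, 42.2 CPM per kb. The order rests on length: of the 10 highest members per kb, 4 were also among the 10 highest in plain CPM. Above the tissue-restricted genes described next, which were lower still, the lowest levels were those of Atp5s (6.23 CPM per kb), Atp5sl (13.5 CPM per kb) and Ndufa11 (21.7 CPM per kb).

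**Figure D1:**
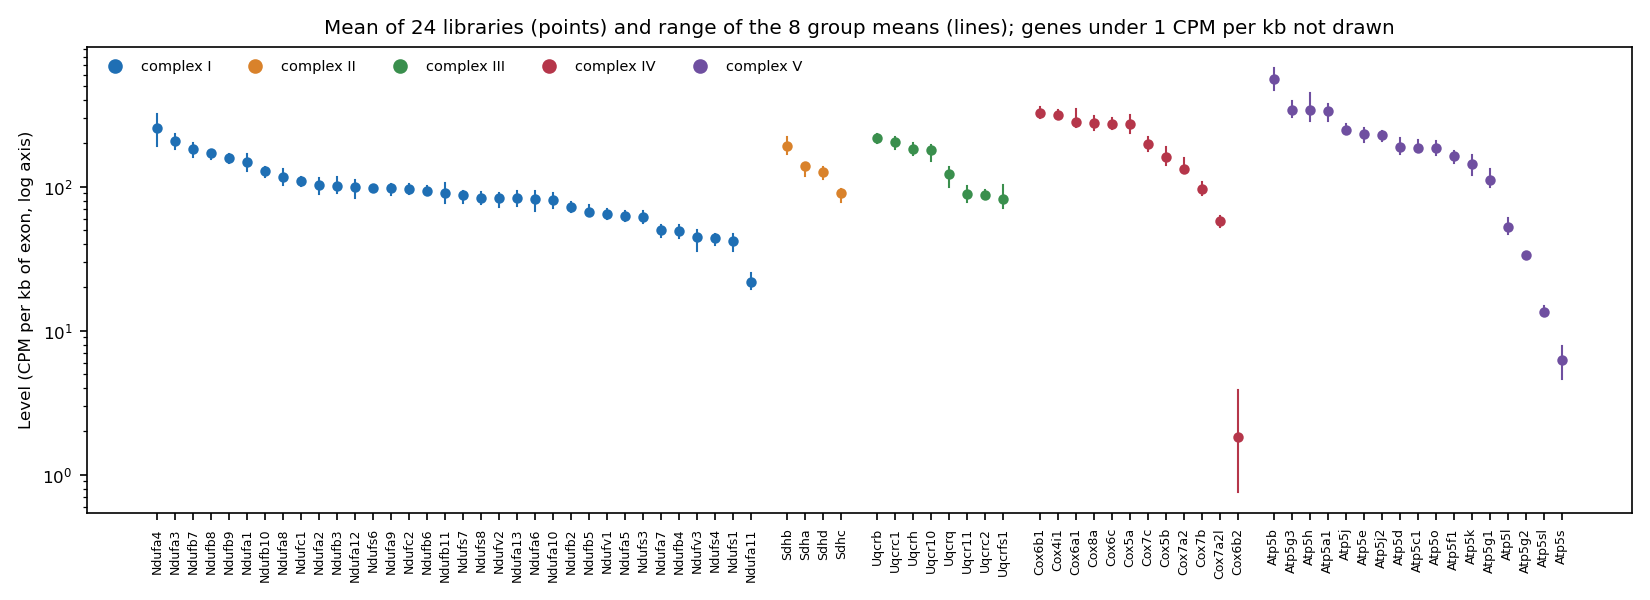
Level of each member in CPM per kb of exon on a log axis, as the mean of 24 libraries (points) with the range of the 8 group means (lines), grouped by complex. Drawn are 75 members at 1 CPM per kb or above; most lines are short beside the spread between genes, and Atp5b is the highest at 560.

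Where a subunit has several isoform genes, these T cells used the one known from most tissues. Cox4i1 made up 99.9% of the Cox4 mRNA per kb and Cox6a1 99.8% of Cox6a, as means over 24 libraries. The partners Cox4i2, the lung and hypoxia isoform, and Cox6a2, the heart and muscle isoform, never passed 40 and 31 counts in a library. Cox6b1 held 99.4% of its pair, Cox8a stood at 5761 counts at most against 2 for Cox8b, and Ndufa4l2 had a count in 2 of 24 libraries, 8 at most. Over the 3 genes with a Cox7a name, Cox7a2 had 69.2% (61.0% to 77.4% over libraries) and the muscle isoform Cox7a1 0.458%. The remaining 30.3% was Cox7a2l, a supercomplex factor rather than an isoform of the subunit. The c ring was drawn from 3 genes that code for the same mature protein, with Atp5g3 at 70.3%, Atp5g1 at 22.9% and Atp5g2 at 6.86%. These shares varied little: Atp5g3 stayed between 67.8% and 73.6% in every library.

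Summed over each complex, the 2 highest CD8 means were those of the CSA and RUX+CSA groups in every complex, by little in complex II. All members together summed to 10440, 8942 and 9452 CPM in untreated CD8 pools 1 to 3. The sums were 10360, 10200 and 11430 CPM for CSA 4 to 6, 9373, 10650 and 10070 CPM for RUX 7 to 9, and 12240, 11150 and 9824 CPM for RUX+CSA 10 to 12. The CSA and RUX+CSA pools overlapped the untreated range in this sum, and RUX+CSA 12 lay inside it. Complex II was 900.9 ± 59.8 CPM (SD, n = 3) in untreated and 911.5 ± 46.8 CPM in RUX+CSA CD8 cells. Complex IV had 1386 ± 102 and 1643 ± 249 CPM in the same groups, and the CSA pools (1521, 1555 and, in CSA 6, 1754 CPM) all lay above the untreated pools (1315 to 1503 CPM). In CD4 cells the sum over all members was 9656 ± 96.4 CPM untreated, 9321 ± 549 with CSA, 9881 ± 1249 with RUX and 9561 ± 228 with RUX+CSA. In complex II the CD4 CSA pools, at 747.8 to 796.3 CPM, lay below all other CD4 pools, of which the untreated had 845.1 to 904.2 CPM.

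**Figure D2:**
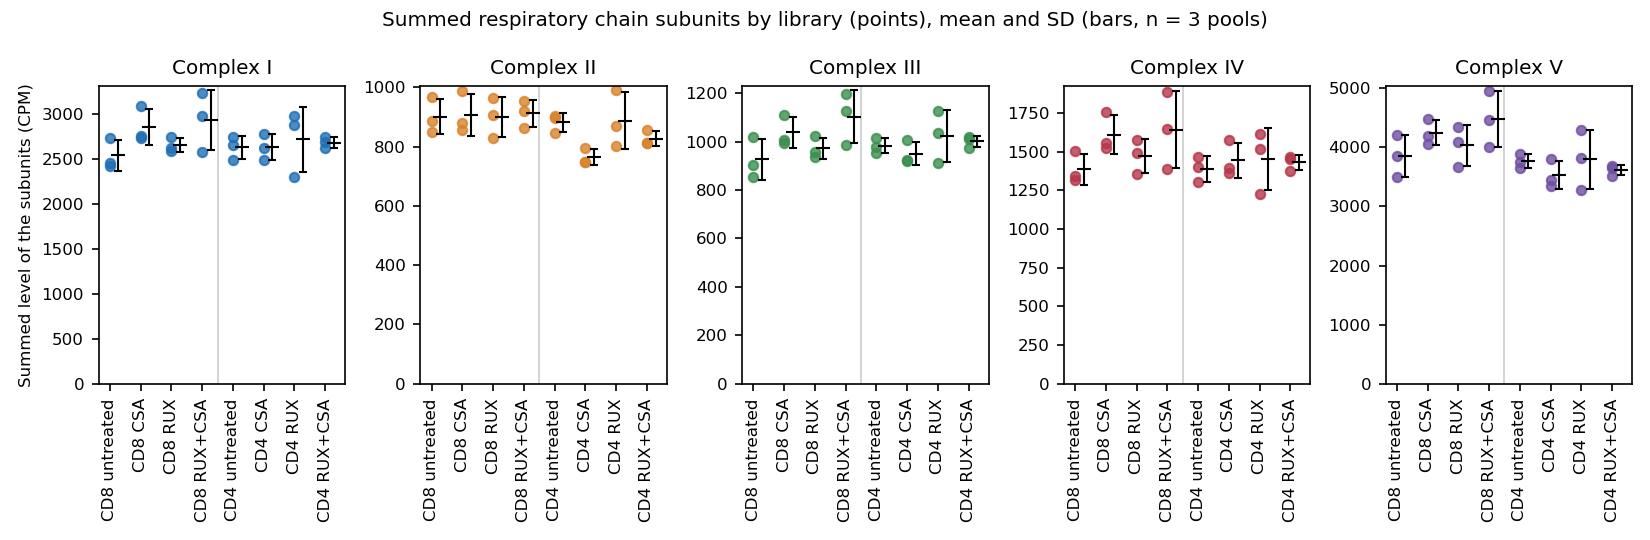
Summed CPM of the subunits of each complex in every library (points) with the group mean and SD (bars, n = 3 pools), CD8 groups left and CD4 groups right of the line in each panel. CD8 RUX+CSA has the widest spread in complex IV, 1391 to 1889 CPM, and complex II is near 900 CPM in all 4 CD8 groups.

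The first comparison asks what the drug pair did to CD8 cells of the failing marrow. Of 78 members tested in CD8 RUX+CSA against CD8 untreated, 12 rose and none fell at an adjusted p under 0.05, where 7.94% of all genes rose, 7.73% fell and 15.7% changed in either direction. The median member was higher by 0.21 on the log2 scale, against −0.02 for all genes tested, and 74 of 78 were above 0. The 12 were 7 subunits of complex I, 1 of complex III, 2 of complex IV and 2 of the ATP synthase. By role they were 3 of 24 core and 9 of 51 accessory subunits, and a difference between the roles was not tested. Sdha, Sdhb, Sdhc and Sdhd did not pass the test. All 3 RUX+CSA pools lay above all 3 untreated pools for 18 members, where 21.7% of all genes did, and below them for 1 member, Sdha, where 21.7% of all genes did.

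Atp5d, the delta subunit of the central stalk that joins rotor and head (chr10:80142315-80145818), had the smallest p. It was 167, 148 and 155 CPM in untreated pools 1 to 3 and 212, 210 and 185 CPM in RUX+CSA pools 10 to 12. The groups did not overlap, and the fold was 1.28 (log2 0.36, SE 0.083, adjusted p = 0.0177 by edgeR). Atp5h, a subunit of the peripheral stalk that holds the head still, had 202, 180 and 164 CPM untreated and 304, 262 and 207 CPM with both drugs (log2 0.49, SE 0.13, adjusted p = 0.0329 by edgeR). RUX+CSA 12 was the lowest treated pool, just above the highest untreated one.

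The 7 genes of complex I rose by similar amounts. Ndufa8, an accessory subunit that faces the intermembrane space, was 80.0, 75.4 and 73.5 CPM untreated and 107.9, 100.2 and 87.4 CPM with both drugs. Ndufa13, also known as GRIM-19, had 96.0, 92.3 and 87.6 CPM untreated and 125.5, 115.3 and 109.5 CPM treated. Both were separated between groups, with log2 fold changes of 0.36 (SE 0.087) and 0.33 (SE 0.087). The core iron-sulfur subunit Ndufv2 (log2 0.30, adjusted p = 0.0391 by edgeR) and its neighbour Ndufv3 (0.35, 0.0399) belong to the part that takes up NADH. Ndufb11 (0.45, 0.0401), Ndufb3 (0.36, 0.0450) and Ndufa1 (0.38, 0.0472) belong to the membrane arm, and for Ndufb3 and Ndufa1 the pools of both groups overlapped.

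In complex III the small subunit Uqcrq rose, from 55.4, 43.4 and 49.7 CPM to 81.2, 65.1 and 59.1 CPM (log2 0.46, SE 0.13, adjusted p = 0.0362 by edgeR). In complex IV the common isoform Cox6a1 rose from 161, 127 and 129 CPM to 209, 183 and 163 CPM (log2 0.40, SE 0.12). Its muscle isoform Cox6a2 had 2, 1 and 0 counts in the untreated pools and 25, 31 and 13 counts in the RUX+CSA pools. That is a ratio of 17.8 with an exact 95% interval of 5.83 to 88.2 for counting error only, and the treated pools reached 1.45 CPM at most. Cox6a2 counts also stood at 26 over the CSA pools and 23 over the RUX pools, against 3 over the untreated pools.

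**Figure D3:**
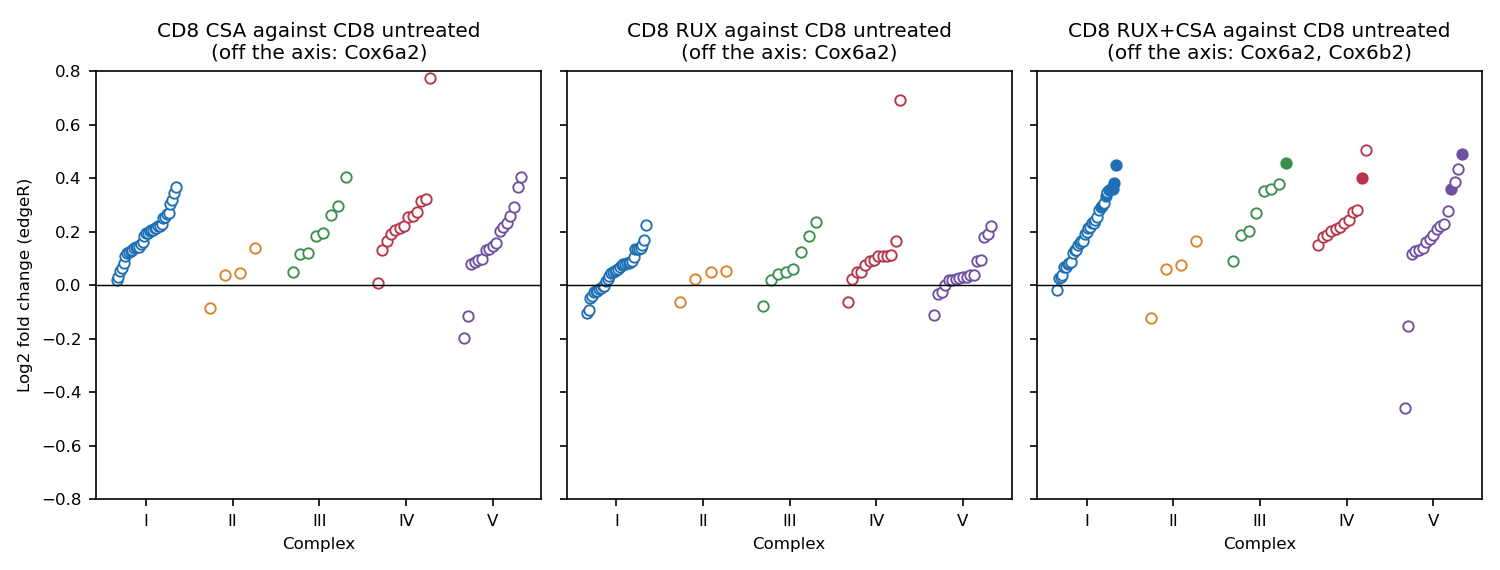
Log2 fold change of each member against untreated CD8 cells for CSA, RUX and RUX+CSA, by complex; filled points passed an adjusted p of 0.05 in edgeR, and members beyond 0.8 are named above the panel. Most members lie above 0 with CSA (75 of 78) and RUX+CSA (74 of 78), and filled points appear under RUX+CSA alone, 11 of them within the axis and Cox6a2 beyond it.

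The promoters of the members, risen or not, were read from RefSeq sequence (GRCm38.p6). It held 75 promoter windows for 69 of the 84 members. Each window runs from 250 bases before the transcript start to 50 after it. Both strands were searched for 4 sequences, the letters bound by NRF1 (GCGC, any base, then TGCGC), by ETS factors such as GABP (CTTCCGG), by YY1 (AANATGGCG) and by estrogen-related receptors (TCAAGGTCA), all of them factors known to act on mitochondrial genes. The NRF1 letters stood in 18 of the 75 windows (24%) and in 4.6% of 32851 promoters of all genes. For ETS the shares were 21.3% and 8.86%, for YY1 16% and 2.38%, and for the estrogen-related receptors 2.67% and 0.423%. The members' windows had a median GC content of 57.3%, and all promoters 52.7%. Matches of different sequences did not overlap in any member's window. Shown here are 4 of the CD8 genes that rose, those with a match, 5′ to 3′ along the gene, with the matched letters in capitals.
Ndufa8 (chr2:36049289-36049588, minus strand): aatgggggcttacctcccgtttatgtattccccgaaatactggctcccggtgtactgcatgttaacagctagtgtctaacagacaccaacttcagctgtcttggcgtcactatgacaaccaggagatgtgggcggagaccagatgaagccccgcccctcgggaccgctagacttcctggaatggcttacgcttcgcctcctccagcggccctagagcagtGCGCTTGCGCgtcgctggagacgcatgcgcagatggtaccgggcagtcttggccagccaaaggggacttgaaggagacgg
Atp5h (chr11:115419870-115420169, minus strand): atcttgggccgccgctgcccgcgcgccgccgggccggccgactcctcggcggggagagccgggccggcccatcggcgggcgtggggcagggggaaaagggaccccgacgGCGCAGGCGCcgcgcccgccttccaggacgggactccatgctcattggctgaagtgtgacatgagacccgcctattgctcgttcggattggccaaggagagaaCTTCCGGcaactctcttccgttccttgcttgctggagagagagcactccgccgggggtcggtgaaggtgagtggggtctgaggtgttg
Cox6a1 (chr5:115348909-115349208, minus strand): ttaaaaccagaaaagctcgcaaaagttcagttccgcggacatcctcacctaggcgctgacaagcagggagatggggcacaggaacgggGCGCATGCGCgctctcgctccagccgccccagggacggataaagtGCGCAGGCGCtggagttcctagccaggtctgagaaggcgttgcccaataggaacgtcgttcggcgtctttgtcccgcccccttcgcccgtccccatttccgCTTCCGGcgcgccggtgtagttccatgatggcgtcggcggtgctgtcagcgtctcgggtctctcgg
Ndufb11 (chrX:20617570-20617869, minus strand): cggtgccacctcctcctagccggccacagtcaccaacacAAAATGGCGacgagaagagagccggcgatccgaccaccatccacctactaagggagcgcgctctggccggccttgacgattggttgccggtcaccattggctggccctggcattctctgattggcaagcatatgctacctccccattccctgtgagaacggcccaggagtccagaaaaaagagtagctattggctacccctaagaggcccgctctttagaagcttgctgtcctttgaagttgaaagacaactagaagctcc
Ndufa8 holds 1 NRF1 match, Atp5h 1 NRF1 and 1 ETS match, Cox6a1 2 NRF1 matches and 1 ETS match, and Ndufb11 1 YY1 match. The other 8 genes that rose have no such letters in their window or no window in the table, which says nothing about binding. Of the 69 members with a window, 38 held at least 1 of the 4 sequences, so a match is not particular to the genes that rose. Any part of these sequences in the drug response was not tested.

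Fold changes in CD8 RUX+CSA against untreated differed with exon length. Genes outside the chain with exons of up to 1000 bases had a median log2 fold change of 0.21 (532 genes with mean log2 CPM of 3 or more), and 16.7% of them rose. Members of that length had a median of 0.23 and 16.7% rose (8 of 48). In genes over 4000 bases the median was −0.13 and 3.02% rose. With an offset that removes each library's trend on exon length, chosen after seeing the data, 1 member rose in place of 12: Atp5d, at log2 0.19 (adjusted p = 0.0420 by edgeR). The median of the members was then 0.03. The part of exon length in the members' rise was not tested. Markers of other cells also differed between the groups: the summed neutrophil genes (10 of 10 with a count) were 10.9 to 1424 CPM untreated and 4173 to 5545 CPM with both drugs, the erythroid genes 1.09 to 13.0 and 45.4 to 164.6 CPM (7 of 11 with a count, with Hbb-bs, Hbb-bt, Hba-a1 and Hba-a2 at 0), and the macrophage genes (10 of 10) 75.4 to 203.5 and 628 to 816 CPM. The part of these cells in the members' rise was not tested. The count of 12 became 0 without untreated 2, RUX+CSA 10 or RUX+CSA 11, 1 (Atp5d) without untreated 3, 10 without untreated 1 and 28 without RUX+CSA 12. The shares of all genes called in these leave-outs are not given, so these counts have no background beside them. Without CSA 6 and RUX 7, which share the fit but not the comparison, the members' count was 21 (26.9% of members). The genes called in the whole table went from 1988 to 3893 (30.4%). The members' median was then 0.21.

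**Figure D4:**
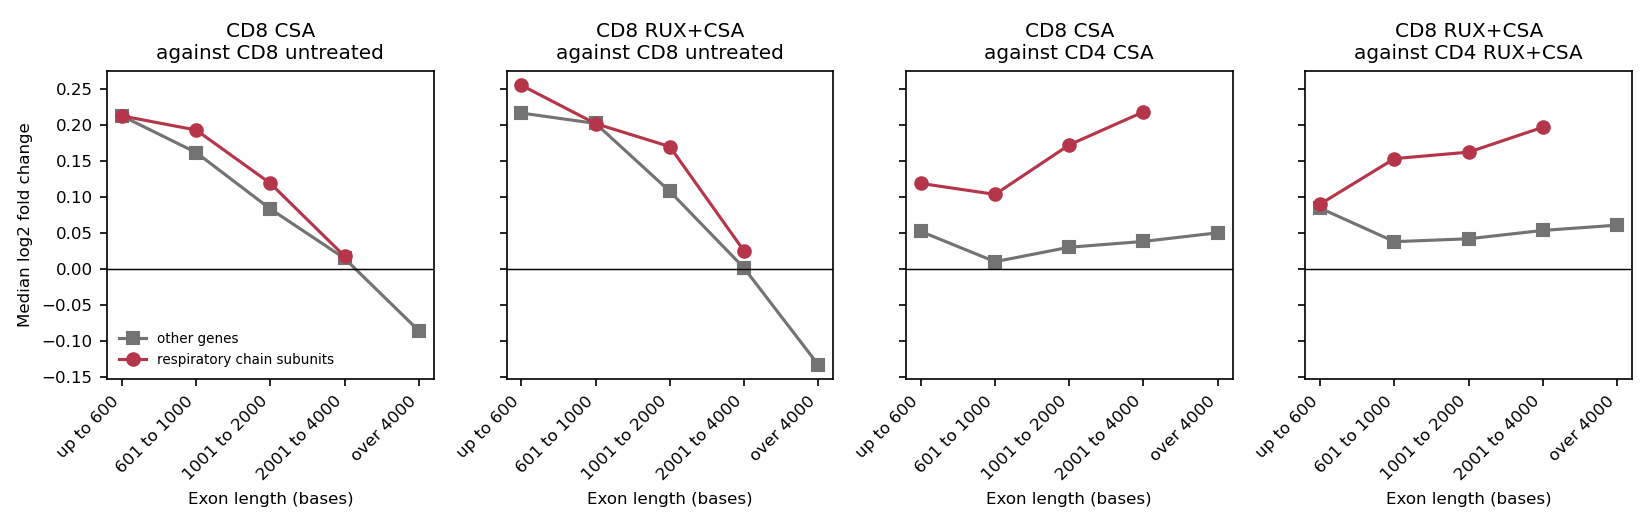
Median log2 fold change by exon length for the members (circles) and for all other genes with mean log2 CPM of 3 or more (squares) in 4 comparisons. Against untreated CD8 cells both sets fall with length and lie close together (up to 1000 bases, 0.23 and 0.21 with RUX+CSA); in CD8 against CD4 the members lie above the other genes, except for near-equal medians in the shortest class with RUX+CSA.

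Each drug alone gave no call among the members in CD8 cells. With CSA 0 of 78 passed, as did 0% of all genes, and 18 members had an unadjusted p under 0.05 in edgeR. The members' median was nevertheless 0.19, 75 of 78 were above 0, and 23 had all 3 CSA pools above all 3 untreated pools, which 8.81% of all genes had. None had all 3 below, which 8.29% of all genes had. The shares of all genes above 0 or under that unadjusted p are not given, here or in the comparisons below. Without CSA 6 and RUX 7 the median was 0.10 and 68 of 78 were above 0. Ndufv3 had the smallest p, with 69.0, 68.0 and 77.8 CPM in CSA 4 to 6 against 55.5, 55.3 and 58.0 CPM untreated (log2 0.35, SE 0.10, adjusted p = 0.416 by edgeR). Uqcrq (0.41) and Ndufa1 (0.37) followed. Short genes outside the chain had a median of 0.17 in the same comparison, against 0.21 for members of up to 1000 bases. No member passed without CSA 6 and RUX 7 either, while 616 genes of the whole table (4.81%) did, in place of 0. The erythroid markers summed to 19.9 to 127.9 CPM with CSA and 1.09 to 13.0 CPM untreated (7 of 11 with a count in both), and the basophil and mast cell markers to 1.84 to 35.1 CPM (5 of 5) and 0.0806 to 0.932 CPM (4 of 5, Ms4a2 at 0). Neither sum overlapped between the groups, and the part of these cells was not tested.

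With RUX 0 of 78 members passed (0% of all genes), the median was 0.05, and 1 member, Cox6a2, had an unadjusted p under 0.05. Without CSA 6 and RUX 7 the count was again 0 and the median 0.08. Uqcrq was 60.4, 57.4 and 57.5 CPM against 55.4, 43.4 and 49.7 CPM untreated (log2 0.24, SE 0.13), and Ndufv2 had a log2 fold change of 0.15 (SE 0.086). RUX+CSA against CSA also gave no call (0.0788% of all genes), no member with an unadjusted p under 0.05 and a median of 0.03, which was 0.10 without CSA 6 and RUX 7. RUX+CSA against RUX gave none (0% of all genes), with a median of 0.16 and 11 members under an unadjusted p of 0.05, led by Atp5d (156, 167 and 160 CPM with RUX, log2 0.32, SE 0.083, adjusted p = 0.120 by edgeR), Cox6a1 (0.35) and Ndufa13 (0.23). Atp5d passed this comparison once CSA 6 and RUX 7 were left out (adjusted p = 0.0334 by edgeR) and in DESeq2 (0.0104). Without those libraries the median was 0.14 and 11.6% of all genes passed. These comparisons share the untreated or the RUX+CSA pools, so their values are not independent of each other.

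In CD4 cells edgeR called no member in any of the 5 drug comparisons, while DESeq2 called 1 in each of 3: CSA against untreated, RUX+CSA against untreated and RUX+CSA against RUX. With CSA 0 of 78 members passed where 1.48% of all genes did, and 4 members had an unadjusted p under 0.05 in edgeR. Cox6b2, the testis isoform of subunit 6B, came first: it had 0.528, 0.290 and 0.579 CPM in untreated 13 to 15 and 2.72, 1.80 and 2.68 CPM in CSA 16 to 18 (log2 2.36, SE 0.61, adjusted p = 0.0754 by edgeR). DESeq2 called it (adjusted p = 0.00265), and its counts ran from 5 to 82 over all libraries. Atp5a1 had a log2 fold change of −0.27 (SE 0.098) and Sdhc one of −0.28 (SE 0.11), and the CSA pools of both lay below all untreated pools. Sdha, the catalytic subunit of complex II, had 426.5, 377.0 and 400.7 CPM untreated and 354, 340 and 328 CPM with CSA (−0.24, SE 0.094, adjusted p = 0.236). The CSA pools lay wholly above the untreated pools for 4 members and wholly below for 8, and 10.2% of all genes did each. The median over all members was 0.02, and that of complex II −0.22 over 4 genes. The erythroid markers summed to 166.4 to 235.7 CPM in the CSA pools and to 1.78 to 41.7 CPM untreated, and their part was not tested.

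With RUX 0 of 78 members passed (0% of all genes), the median was 0.06, and 1 member had an unadjusted p under 0.05, Uqcrq (log2 0.26, SE 0.11), ahead of Ndufs7 (0.22) and Ndufa12 (0.24). RUX+CSA gave 0 of 78 (1.77% of all genes), 6 under an unadjusted p of 0.05, and a median of 0.02. Cox4i2 was at 0 counts in all 3 RUX+CSA pools and at 5, 39 and 13 counts in untreated 13 to 15, so it was at least 17.9-fold lower, taking 3 counts over the group as the floor (adjusted p = 0.0538 by edgeR). DESeq2 called it too (adjusted p = 0.00305). The untreated pools span a wide range, from 0.165 to 1.41 CPM. Cox6b2 (1.71, SE 0.61) and Uqcrq (0.26, SE 0.11) followed in this comparison. RUX+CSA against CSA (0.281% of all genes) and against RUX (0.782%) gave no member in edgeR either, with medians of 0.03 and −0.05 and 3 and 2 members under an unadjusted p of 0.05. After Cox4i2, which was at least 4.97-fold lower than with CSA and at least 16.7-fold lower than with RUX (adjusted p = 0.00650 by DESeq2), came Uqcrc1 (0.22, SE 0.086) and Sdha (0.22) against CSA, and Sdhd (−0.28, SE 0.11) and Ndufs3 (0.23) against RUX. Setting Cox4i2 at its bounds left the 3 medians as they were.

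CD8 and CD4 cells were then compared within each treatment. Of the members called in CD8 RUX+CSA against untreated, Atp5h and Ndufv3 alone were called here as well. A difference between the sets of genes was not tested. Untreated, 1 of 79 members differed, where 17.2% of all genes did (7.2% higher and 10% lower in CD8): Ndufv3 was lower in CD8 cells, with 55.5, 55.3 and 58.0 CPM against 60.5, 87.1 and 73.4 CPM (log2 −0.39, SE 0.12, adjusted p = 0.0344 by edgeR). The call was lost in 5 of 6 leave-outs, all but the one without CD4 untreated 13, in which 4 members passed. With RUX 2 of 79 were higher in CD8 and none lower (8.56% of all genes higher, 9.32% lower and 17.9% either). These were Ndufs1, with 140, 138 and 133 CPM in CD8 and 111, 120 and 103 CPM in CD4 (0.30, SE 0.088), and Ndufa10, an accessory subunit of the membrane arm (0.33, SE 0.11), whose pools overlapped. Both calls were lost without CD8 RUX 7, CD8 RUX 8, CD4 RUX 19 or CD4 RUX 21, and neither passed without CSA 6 and RUX 7. The members' median was −0.07 with all libraries and −0.02 without those. With an offset for exon length 8 passed for RUX, among them Cox5a and Ndufv1. The share of all genes called with that offset is not given.

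With CSA 7 of 79 were higher in CD8 cells and none lower, where 13.6% of all genes were higher, 12.8% lower and 26.3% either. Ndufa4, the subunit of complex IV that carries a complex I name, led with 141, 134 and 170 CPM in CD8 CSA 4 to 6 and 102.3, 79.5 and 103 CPM in CD4 CSA 16 to 18 (log2 0.64, SE 0.14, adjusted p = 0.00253 by edgeR). The pools did not overlap, and the call held in each of 6 leave-outs. Beside it stood the head of the ATP synthase, with Atp5a1 at 863 ± 63.8 against 690 ± 21.0 CPM (log2 0.32) and Atp5b at 1174 ± 55.5 against 883.5 ± 98.1 CPM (0.41), and the stalk subunit Atp5h (0.37). Complex II gave Sdhb, its iron-sulfur subunit (0.37), and the membrane anchor Sdhc (0.25), and complex IV gave Cox5a, a matrix-side subunit (0.35). Without CSA 6 and RUX 7, Ndufa4, Atp5b and Atp5h passed (3 of the 7), 11.5% of all genes were higher, and the members' median was 0.08 in place of 0.13. The count fell to 1 without CD4 CSA 17, to 2 without CD8 CSA 4 or CSA 6 and to 3 without CD4 CSA 18.

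With RUX+CSA 12 of 79 were higher in CD8 cells and none lower, where 14.8% of all genes were higher, 13% lower and 27.8% either, so the share of members (15.2%) was near the background. Uqcrfs1, the Rieske protein that takes electrons from ubiquinol in complex III, was 150, 139 and 114 CPM in CD8 RUX+CSA 10 to 12 and 103.6, 86.6 and 89.7 CPM in CD4 RUX+CSA 22 to 24 (log2 0.52, SE 0.11, adjusted p = 0.00156 by edgeR). Atp5h had 304, 262 and 207 CPM in CD8 and 177, 173 and 165 CPM in CD4 (0.58, SE 0.12), and Ndufs1 had 140.5, 139.5 and 125.2 against 102.9, 101.1 and 111.2 CPM (0.36, SE 0.088). For all 3 the pools were apart and the call held in each of 6 leave-outs. The other 9 included Ndufa4 (0.51), Sdhb (0.39), Cox5a (0.38), Cox5b (0.40), Atp5a1 (0.27), Atp5b (0.46), Atp5g3 (0.36) and Atp5f1 (0.27), and these 9 lost their calls without CD8 RUX+CSA 10, while 18 members passed without RUX+CSA 12. The share of all genes called in those leave-outs is not given. By role 9 of 24 core subunits and 3 of 52 accessory subunits were called. A difference between the roles was not tested. Core subunits such as Ndufs1 (2927 bases of exon) and Atp5a1 (2431 bases) are among the longest members.

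The cell types differed in 6 genes both with CSA and with RUX+CSA: Atp5a1, Atp5b, Atp5h, Cox5a, Ndufa4 and Sdhb, 6 of 7 and 6 of 12. These comparisons share no library but come from the same fit, with a shared estimate of the spread. Of all genes 13.6% were higher in CD8 with CSA and 14.8% with RUX+CSA, and how many of them recurred was not counted. With the offset for exon length 9 members passed for CSA, all 7 among them, and 14 for RUX+CSA, 11 of the 12 among them. The shares of all genes called with the offset are not given, and the 13.6% and 14.8% come from the fit without it. In genes outside the chain of up to 1000 bases the median was 0.02 for CSA and 0.05 for RUX+CSA, and in members of that length 0.11 and 0.12. The neutrophil markers summed to 819 to 3307 CPM in CD8 and 3248 to 15950 CPM in CD4 cells with CSA, and to 4173 to 5545 and 7825 to 9832 CPM with RUX+CSA, and their part was not tested.

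**Figure D5:**
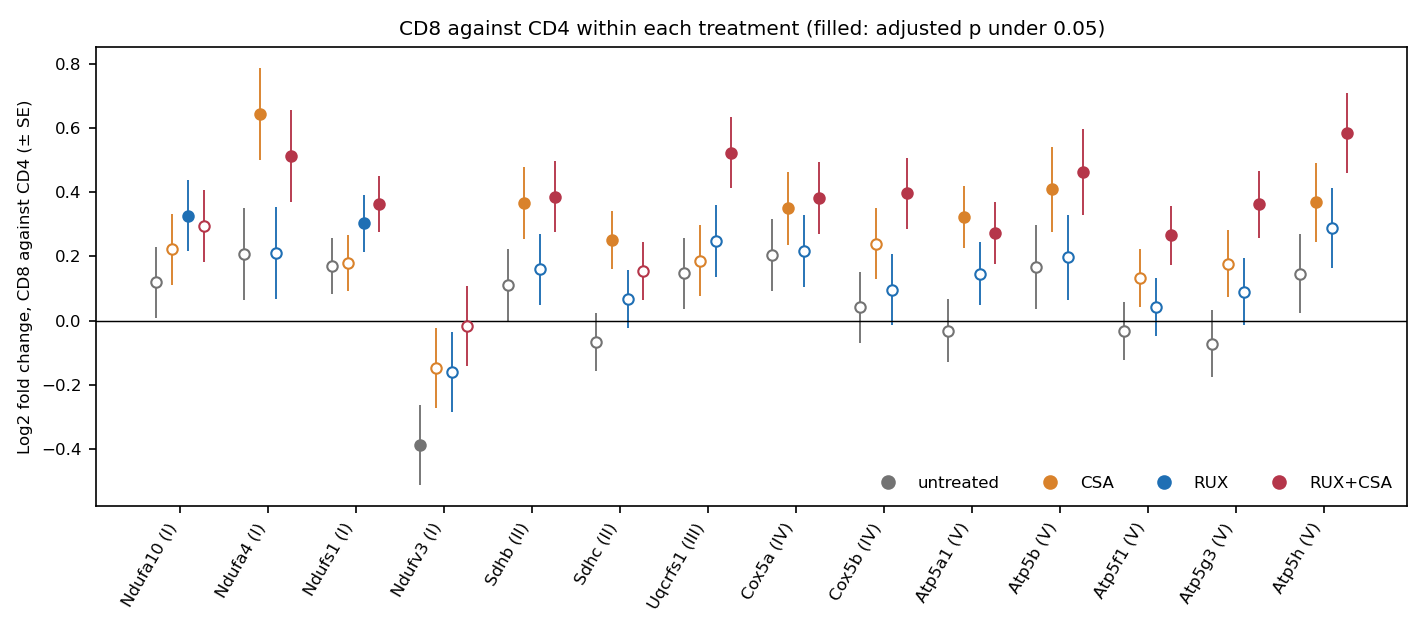
Log2 fold change of CD8 against CD4 cells (± SE) within each treatment for 14 members called in at least 1 of the 4 comparisons, with filled points at an adjusted p under 0.05 in edgeR. For Atp5h the values run from 0.15 untreated to 0.58 with RUX+CSA, and Ndufv3 is the single member below 0 with a call.

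Whether the drug pair acted differently on the chain in CD8 and CD4 cells was tested by the interaction of cell type and treatment. No member passed (0 of 79), 14 had an unadjusted p under 0.05 in edgeR, and 0.0223% of all genes passed. The members' median difference was 0.20 in favour of CD8, and 69 of 79 were above 0. The shares of all genes under that unadjusted p or above 0 are not given. Atp5g3 came first (0.44, SE 0.15, adjusted p = 0.220 by edgeR), followed by Ndufs4, an accessory subunit needed for a stable matrix arm (0.39, SE 0.14), and Ndufa8 (0.38, SE 0.15). Short genes outside the chain had a median of 0.17 in this test, against 0.20 in members of the same length. A drug effect that differed between the cell types was thus not shown for any single subunit.

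Within several groups the members varied together from pool to pool. RUX+CSA 10 had the highest of the 3 CD8 values for 70 of 79 members and RUX+CSA 12 the lowest for 74. Untreated 1 was highest for 69, CSA 6 for 67, and in CD4 cells RUX 21 was lowest for 71. The members' median distance from their group mean was 0.16 (log2) in CD8 RUX+CSA 10, −0.19 in CD8 RUX+CSA 12 and −0.22 in CD4 RUX 21. Other genes of up to 1000 bases deviated the same way, by 0.14, −0.17 and −0.16, and genes over 4000 bases the opposite way, by −0.06, 0.09 and 0.07. In CD4 RUX+CSA the pools hardly differed: 36, 26 and 17 members were highest in pools 22 to 24, and the median distances were 0.015, 0.023 and −0.031. Beside these stands the median of 0.21 for RUX+CSA against untreated CD8 cells.

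Other genes of the pathway were read from 6 lists. In CD8 RUX+CSA against untreated, 3 of 46 assembly factors rose and 1 fell, where 7.94% of all genes rose and 7.73% fell. Cox17, the copper chaperone of complex IV, had 108, 80.4 and 99.8 CPM untreated and 179, 153 and 122 CPM with both drugs (log2 0.65, SE 0.17, adjusted p = 0.0281 by edgeR). Cox16 (0.56) and Sdhaf2 (0.29) rose as well, and Cox15, a heme A synthase, fell by 0.24. Of 7 carriers and channels the ADP/ATP carriers Slc25a4 (0.30) and Slc25a5 (0.36) rose, and Slc25a5 was 662, 489 and 560 CPM untreated and 771, 755 and 686 CPM treated. In the tricarboxylic acid cycle Suclg1 (0.37) and Suclg2 (0.25), both subunits of succinyl-CoA ligase, rose among 14 genes, and in coenzyme Q synthesis Coq10b (0.39) rose among 11. No call was made among 11 further subunits and electron carriers or among 17 factors of mitochondrial gene expression. The calls on these 6 lists, here and between cell types, were not checked under the leave-outs or other alternatives. Those changed the members' count in this comparison.

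Between CD8 and CD4 cells several regulators differed under every treatment. Of 17 factors of mitochondrial gene expression, 4 were higher in CD8 and 2 lower untreated, 5 and 1 with CSA, 2 and 3 with RUX, and 4 and 1 with RUX+CSA. Of all genes 7.2%, 13.6%, 8.56% and 14.8% were higher, and 10%, 12.8%, 9.32% and 13% lower, in that order. In the same order 0, 5, 3 and 7 of 46 assembly factors were higher in CD8 and 2, 2, 2 and 4 lower. Of 14 genes of the tricarboxylic acid cycle 1, 4, 2 and 5 were higher and 1 was lower each time, and of 11 subunits and carriers outside the name rule 1, 4, 1 and 3 were higher and none lower. Lrpprc, which stabilises mitochondrial mRNA, was higher in CD8 cells under all 4 treatments, by log2 0.47 untreated, 0.64 with CSA, 0.49 with RUX and 0.71 with RUX+CSA. Gabpa, the DNA-binding subunit of GABP, was higher by 0.37, 0.33, 0.52 and 0.43 in the same order, and Polg, the mitochondrial DNA polymerase, was called lower in all 4. Cyc1, the cytochrome c1 subunit of complex III that the name rule misses, was higher with CSA (0.34) and RUX+CSA (0.48), and was 0.08 untreated and 0.04 with RUX. Gpd2, from the same list, was called higher in CD8 in all 4, with untreated means of 183.8 against 49.0 CPM. In the tricarboxylic acid cycle Idh3a was called higher in all 4. The assembly factors Sdhaf1 (untreated means of 12.3 against 35.1 CPM) and Cox14 were called lower in all 4. Slc25a5 was higher in CD8 with CSA (0.44), RUX (0.40) and RUX+CSA (0.54). Idh2, the NADP-linked isocitrate dehydrogenase, was lower in CD8 cells in all 4 comparisons, with log2 values of −1.39 untreated, −0.97 with CSA and −1.46 with RUX, and means of 11.3 against 22.7 CPM with RUX+CSA. In CD4 cells Idh2 fell with CSA by 0.88 (adjusted p = 0.0429 by edgeR).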

How the data were processed

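RNA from CD8 and CD4 T cells sorted from marrow was made into libraries with a SMART-Seq mRNA kit, per the labels' protocols. The authors deposited raw counts of read pairs per gene, made with featureCounts 2.0.3 over the exons of each gene without strand, per the file headers; STAR and the mm10 build are named in the submitters' processing notes, which give no version of STAR. Nothing was rescaled before deposit as far as the headers and the whole-number counts show.

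The members and all gene lists were chosen with earlier results of these data known. Genes with low counts were filtered by group, TMM factors computed, and all genes tested with edgeR 4.0.16 (quasi-likelihood F test, R 4.3.3) in 3 fits: 12 CD8 libraries, 12 CD4 libraries, and all 24 for comparisons of cell types. Two-sided p-values were adjusted by Benjamini-Hochberg across every gene of a fit, and 0.05 was the threshold. The 15 comparisons were adjusted separately. The code was tested on simulated data first. With 3 pools a group, p-values measure the spread between pools. Levels per kb divide CPM by the exon length in the deposited table. A gene with no counts in a group was set at a floor of 3 counts over that group.

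Named members are, by a written rule, up to 10 called in each direction by smallest p, or else the 3 with the smallest p, with fixed core and isoform genes for the levels and the 3 highest and lowest levels; Cox6a1, Ndufa1, Atp5f1 and Atp5a1 complete lists of 12 and were named after their values were seen, as were the members added by the exon-length offset. One member that the rule names is not reported here. Alternatives were DESeq2 1.42.0, limma 3.58.1 with voom, DESeq2 size factors in edgeR, no low-count filter, each library left out in turn, the CD8 libraries CSA 6 and RUX 7 left out together and, chosen after seeing the data, an offset for exon length.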

Additional observations from a re-analysis of the deposited data

How the results depend on the processing

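Counts of members called are given here for each comparison in which an alternative moved them by over 1.5 times. With DESeq2 the count for CD8 RUX+CSA against untreated was 23 in place of 12, and 1 member in place of 0 was called in CD8 RUX+CSA against RUX, CD4 CSA against untreated, CD4 RUX+CSA against untreated and CD4 RUX+CSA against RUX; for CD8 against CD4 untreated it called 2 in place of 1. With the exon-length offset the counts were 1 for CD8 RUX+CSA against untreated, 1 for CD4 RUX+CSA against untreated, 3 for CD8 against CD4 untreated and 8 in place of 2 with RUX. Without CD8 CSA 6 and RUX 7 they were 21 for CD8 RUX+CSA against untreated (with 3893 genes of the whole table called in place of 1988), 1 against RUX, 3 in place of 7 for CD8 against CD4 with CSA and 0 with RUX. With no low-count filter 1 member was called in CD4 RUX+CSA against untreated and 1 in CD8 against CD4 with RUX. For CD8 against CD4 untreated, DESeq2 size factors gave 2 and limma voom 0. Counts over the whole table are not given for DESeq2, the offset, the unfiltered fit, DESeq2 size factors or voom. The cause of these moves was not tested.

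Leaving out each library in turn gave 0 to 28 members for CD8 RUX+CSA against untreated, 0 to 1 for CD4 RUX+CSA against untreated, and for CD8 against CD4 0 to 4 untreated, 1 to 10 with CSA, 0 to 3 with RUX and 3 to 18 with RUX+CSA; in the other 9 comparisons it gave 0 to 0. The shares of all genes called in these leave-outs are not given. No named member reversed its direction under these alternatives, each where it was run; leaving out CSA 6 and RUX 7 was run for 7 comparisons. No paired analysis was possible because no pool number occurs in more than 1 group. With 3 pools a group, and CD8 RUX+CSA pools that differ as widely as the groups do, a member that missed the threshold is not shown to be unchanged.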
